A study of Mus musculus with 3 samples.

Results

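Eras, the Ras genes Nras, Rras, Rras2 and Mras, and the exchange factor gene Rasgrp2 were followed in mouse embryonic stem (ES) cells during overexpression of Gata6, a transcription factor of the primitive endoderm. A list of 7 genes had been drawn up with the signals of these arrays in view, and every probe set that the platform annotation gives to 1 listed gene alone was taken. That gave 13 probe sets of 6 genes, out of 34945 probe sets and 18193 genes read in all; the other listed gene had no such probe set and was not analysed here. All 6 genes lay above the detection floor on at least 1 array. Because the choice used the signals of all 3 days, the values below describe these arrays and carry no test.

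The cells had been altered genetically so that Gata6 overexpression answers to dex, taken here to be dexamethasone, a synthetic glucocorticoid. The groups were control cells at day 0, cells at day 1 of Gata6 overexpression and cells at day 2 of it, with 1 array per group and no replicates. The labels do not say whether day 0 cells carried the alteration, and the sources used here give neither the ES cell line and its strain, nor the dose of dex, nor any use of feeder cells. A ratio between days is therefore a ratio between single cultures.

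Ras proteins are small GTPases that switch on when exchange factors load them with GTP and off when GTPase activators speed its hydrolysis. Active Ras binds the Raf kinases, which act through MEK on ERK, and phosphoinositide 3-kinase (PI3K), which acts through Akt. Eras is an unusual member found in ES cells: it holds GTP without the usual regulation, signals mainly through PI3K, and supports the rapid growth of mouse ES cells. Nras is a classical Ras protein, while Rras, Rras2 (TC21) and Mras form a related subfamily linked to adhesion and survival. Rasgrp2 (CalDAG-GEFI) is a calcium-sensitive exchange factor, best known from platelets, that acts chiefly on the Ras relative Rap1.

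The genes showed 3 kinds of pattern. Eras, Mras and Rasgrp2 were bright on day 0 and far dimmer on both later days, Rras2 was brighter on each later day, and Nras and Rras held their signal. Taking the brightest probe set of each gene, 3 of 6 genes were at least 2-fold lower on day 1 than on day 0 and 0 were at least 2-fold higher, where 6.58% and 6.00% of 13602 genes compared were. On day 2 against day 0, 3 were lower and 1 higher, where 10.1% and 11.0% of 13865 genes were. On day 2 against day 1 the counts were again 3 lower and 1 higher, against 3.67% and 5.61% of 13468 genes. By probe sets, 7 of 13 were lower and 0 higher on day 1 (5.90% and 5.94% of 24916), 7 were lower and 2 higher on day 2 against day 0 (9.12% and 10.8% of 25414), and 4 were lower and 1 higher on day 2 against day 1 (3.49% and 5.31% of 24759). The members were picked on these contrasts, so nothing is read from the counts or from the medians that follow. The median log2 ratio over the 6 genes was -1.10 on day 1 and -1.70 on day 2 against day 0, beside -0.04 and -0.05 over all genes compared. Each median of the 6 falls midway between Mras and Rras and lies near no gene.

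**Figure D1:**
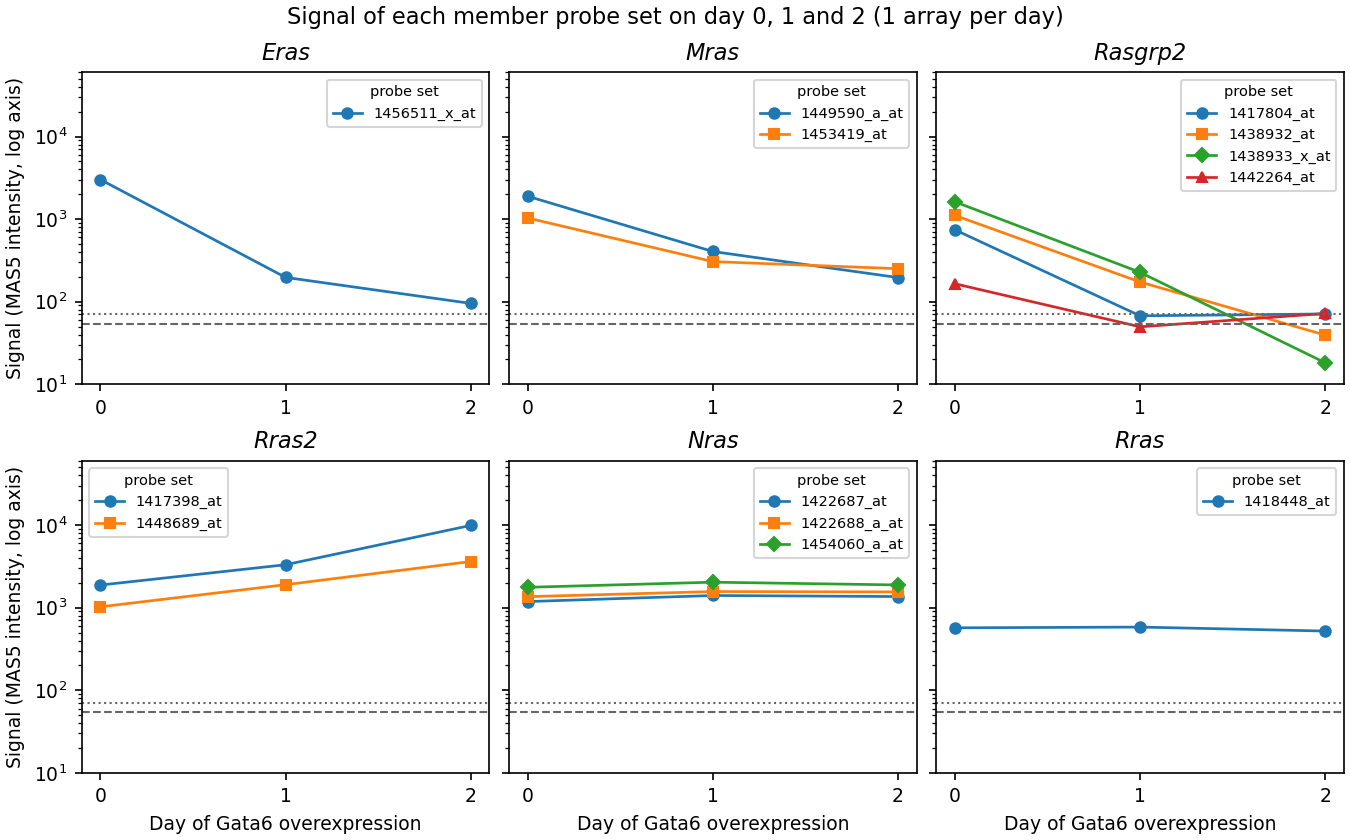
Signal (MAS5 intensity, log axis) of each of the 13 probe sets on day 0, 1 and 2, with 1 array per day, a panel per gene and the probe set identifiers in the legends. The dashed line is the detection floor of 54.0 and the dotted line the receptor background of 70.2; Eras, Mras and Rasgrp2 descend, Rras2 climbs, and Nras and Rras stay level.

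The 250 bases before the transcription start of the 4 genes whose signal differed are shown because these genes moved in opposite directions. They come from RefSeq (GRCm38.p6) and are written 5′ to 3′ on the strand of the gene. Capitals mark matches, on either strand, to 5 short motifs. The octamer bound by Oct4 was searched as ATGCAAAT. The motif of Sox factors was searched as ACAATG. The motif of GATA factors, the family of Gata6, was searched as AGATAA. The GC box, bound by Sp1, was searched as GGGCGG. The E-box, bound by Myc and its relatives, was searched as CACGTG. Eras lies at chrX:7928608-7928857 (minus strand), Mras at chr9:99436713-99436962 (minus strand), the first of 2 Rasgrp2 starts at chr19:6399625-6399874 (plus strand) and Rras2 at chr7:114117782-114118031 (minus strand).
Eras: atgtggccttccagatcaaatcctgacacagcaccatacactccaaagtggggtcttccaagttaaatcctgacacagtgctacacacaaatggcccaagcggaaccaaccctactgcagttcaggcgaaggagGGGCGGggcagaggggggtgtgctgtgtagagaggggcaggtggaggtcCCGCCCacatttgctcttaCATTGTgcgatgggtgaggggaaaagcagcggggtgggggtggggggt
Mras: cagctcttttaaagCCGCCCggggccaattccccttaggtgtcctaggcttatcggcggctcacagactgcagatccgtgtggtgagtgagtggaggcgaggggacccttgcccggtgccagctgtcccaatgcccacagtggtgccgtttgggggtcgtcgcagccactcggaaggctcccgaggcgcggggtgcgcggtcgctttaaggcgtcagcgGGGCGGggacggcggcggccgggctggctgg
Rasgrp2: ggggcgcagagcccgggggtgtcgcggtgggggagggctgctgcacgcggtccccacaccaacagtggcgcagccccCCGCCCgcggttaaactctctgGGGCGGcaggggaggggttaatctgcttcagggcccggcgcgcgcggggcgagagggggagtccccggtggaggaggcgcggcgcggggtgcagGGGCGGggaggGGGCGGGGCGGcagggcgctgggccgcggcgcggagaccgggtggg
Rras2: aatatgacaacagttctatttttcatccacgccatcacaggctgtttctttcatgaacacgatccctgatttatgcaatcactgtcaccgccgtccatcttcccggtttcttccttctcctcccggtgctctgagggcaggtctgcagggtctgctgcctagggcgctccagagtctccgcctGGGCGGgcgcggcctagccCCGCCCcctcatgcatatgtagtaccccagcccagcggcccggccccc
Each of the 4 windows held the GC box at least 2 times. The motif was present, in any number, in 32.7% of 32851 such windows of all genes, and the share with at least 2 matches was not counted. The Eras window also held the Sox motif, 48 bases before the start, which 10.7% of all windows hold. No match to the octamer (1.60% of all windows) or the GATA motif (9.99%) lay in these 4 windows, and none to the E-box (6.02%); this says only that those letters were not in the windows searched. Of the other 2 genes, the Nras window held a GATA motif, 2 overlapping GC boxes and an E-box, and the 3 Rras windows held none of the 5 motifs. The windows differed in base composition. CpG pairs numbered 6 in Eras, the same as the median of all windows, 14 in Rras2, 24 in Mras and 31 in Rasgrp2, and the GC content was 58.0%, 59.6%, 68.4% and 79.6% beside a median of 52.4%. The second Rasgrp2 start, with 67.2% GC and 2 GC boxes, is not printed.

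Eras read 3013, 197 and 95.3 on day 0, 1 and 2. The day 0 array was the only one with a strong signal, and day 2 still lay above the receptor background of 70.2, the 95th percentile of 80 probe sets for olfactory and vomeronasal receptors, which ES cells should not express. The log2 ratio was -3.94 on day 1 and -4.98 on day 2 against day 0, each with a measurement SD of 0.38. That SD is the spread of log2 ratios between probe sets of 1 gene at like geometric mean signal of the arrays, and it holds no spread between cultures. At signals up to 200, where Eras lay on day 1 and day 2, the SD was 0.49, so 0.38 may understate the error here. Among genes above the floor on both arrays, Eras had the lowest ratio of 11344 genes on day 1 and of 11438 on day 2 against day 0. On the log2 scale 79.0% of the day 2 difference was present on day 1. The second day's step was smaller, with a log2 ratio of -1.05 (SD 0.49) for day 2 against day 1, 343rd from the lowest of 11467 genes. Eras was read by 1 probe set only, and the x in its name marks probes that may also bind other transcripts. In RNA from a whole culture, fewer cells that express Eras and less Eras RNA per cell cannot be told apart.

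The 10 pluripotency markers used to check the cells moved with Eras. Of these, 9 were at least 2-fold lower on both days against day 0 and 0 higher, and their signals summed to 134798, 58275 and 48382 on day 0, 1 and 2. Dppa5a, which marks naive ES cells, was the exception at 40759, 37051 and 36734. It made up most of the sum on day 1 and day 2, so the sum understates how far the other markers fell. All 10 endoderm markers were at least 2-fold higher on both days, Gata6 among them with 109.6, 5574 and 6069.6, and their summed signal was 4735, 91678 and 142832. Of 7 fibroblast markers, Col1a1, Col3a1 and Postn were under the floor on every array, and the 7 signals summed to 603, 303 and 382. Thy1, a surface protein of fibroblasts and other cells, made up most of the day 0 sum with 421, 75.4 and 50.5, and was at least 2-fold lower on both later days. Twist1 read 7.00, 88.9 and 112.6 and was at least 2-fold higher on day 2. None of 7 housekeeping genes differed 2-fold on either day. Of the 10 pluripotency markers, Fgf4, a growth factor of ES cells, had log2 ratios against day 0 nearest to those of Eras. One of its bright probe sets stood at -3.97 on day 1 and -4.34 on day 2, the other at -3.55 and -3.87, and a dimmer one at -3.00 and -2.33. The Nodal co-receptor Tdgf1 stood at -3.05 and -3.36, and Pou5f1 (Oct4) at -1.44 and -2.29. The part that these markers' cell types have in the Ras gene signals was not tested.

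Mras, which joins Shoc2 and a phosphatase in a complex that activates Raf, had 2 probe sets. The brighter one read 1893, 405 and 196 on day 0, 1 and 2, and the other 1032, 306 and 251. Both were highest on day 0 and well above background on every day. Their log2 ratios were -2.22 and -1.75 on day 1 and -3.27 and -2.04 on day 2 against day 0, with a measurement SD of 0.38 for each. The probe sets differed on the second day: for day 2 against day 1 the brighter one had a log2 ratio of -1.05 and the other -0.29 (SD 0.38 each). The a in the name of the brighter one marks probes shared by several transcripts of the gene.

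Rasgrp2 was read by 4 probe sets. The brightest read 1621, 227 and 18.2 on day 0, 1 and 2, and the next 1109, 173 and 39.4. The third read 743, 67.4 and 71.0, and the dimmest 165, 49.6 and 72.0. All were highest on day 0, and on day 2 each was below the floor of 54.0 or barely above the receptor background. On day 1 the log2 ratios against day 0 were -2.84, -2.68 and -3.46 for the first 3 and -1.61 or lower for the dimmest, whose day 1 signal was below the floor. On day 2 the first and second probe sets were at least 30.0-fold and at least 20.5-fold lower than on day 0, since their day 2 signals were under the floor, and the other 2 had log2 ratios of -3.39 and -1.20. The probe sets did not share the second day's step. The first and second were at least 4.20-fold and 3.21-fold lower on day 2 than on day 1, while the third, near background, had a log2 ratio of 0.07 (SD 0.49). The dimmest, under the floor on day 1, stood at 0.41 or higher (SD 0.49). Blood cells are the best known place of Rasgrp2. Of the 7 blood and platelet markers read, Gp9, Ptprc and Cd48 were below the floor on every array, and the summed signal of the 7 was 601, 408 and 634 on day 0, 1 and 2. They did not move together: the integrin gene Itga2b read 331, 176 and 408, the platelet chemokine gene Pf4 127.5, 68.2 and 25.6, Gp5 100.9, 96.8 and 110.9, and Hba-a1 at most 56.8. Of these, Pf4 alone was at least 2-fold lower on day 2 than on day 0, by at least 1.24 on the log2 scale. Their part in the Rasgrp2 signal was not tested.

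Rras2, the member that was higher, had 2 probe sets. The brighter read 1879, 3311 and 9911 on day 0, 1 and 2, and the other 1024, 1899 and 3619.7. Both were lowest on day 0 and highest on day 2. On day 1 the log2 ratios against day 0 were 0.82 and 0.89, short of 2-fold but over 3 times the measurement SD of 0.25. On day 2 against day 0 they were 2.40 and 1.82 (SD 0.25 each), which is 5.27-fold and 3.53-fold. For day 2 against day 1 they were 1.58 (SD 0.16) and 0.93 (SD 0.25), of which the first was past 2-fold. On the log2 scale 34.1% of the day 2 difference was present on day 1 for the brighter probe set. For the other the share was 48.9%, with steps on the first and second day that were equal within error.

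Nras, the classical Ras gene read here, had 3 probe sets with signals of 1186, 1404 and 1364, of 1359.98, 1567 and 1553, and of 1765, 2036 and 1885 on day 0, 1 and 2. Day 1 was the highest for each, by a small margin. The log2 ratios lay between 0.20 and 0.24 on day 1 and between 0.10 and 0.20 on day 2 against day 0, all within the measurement SD of 0.25. Rras, whose protein is tied to integrin adhesion, read 570.2, 582 and 521 on 1 probe set, with log2 ratios of 0.03 and -0.13 (SD 0.38). A difference between the days of Nras or Rras was thus not detectable beyond measurement error, which does not show that the RNA levels were equal.

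**Figure D2:**
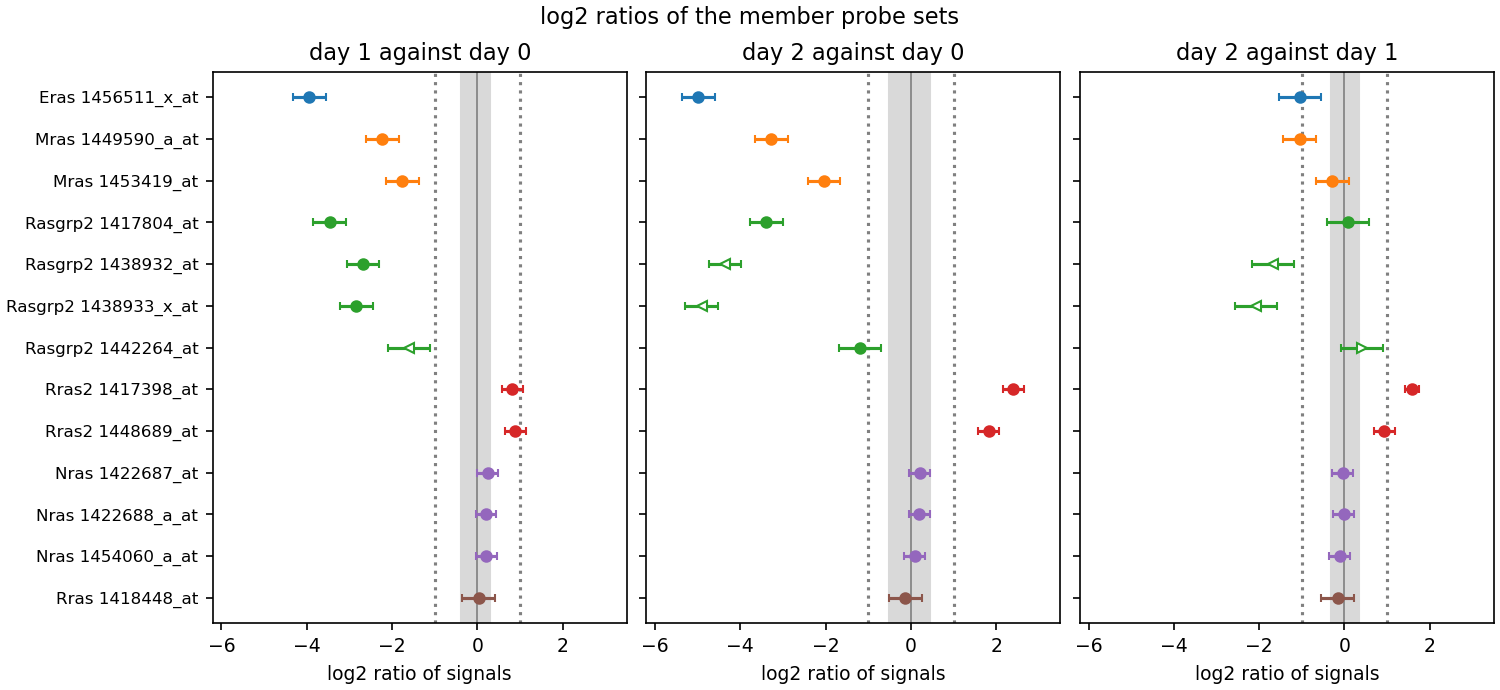
log2 ratio of each member probe set (a row each) in the 3 comparisons, with bars of 1 measurement SD. Open triangles are lower bounds on the size of a ratio, with the dimmer array at the floor; dotted lines mark 2-fold and the grey band the middle 50% of all genes, and Eras, Mras, Rasgrp2 and Rras2 alone leave it by more than their bars in any comparison.

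The wider Ras pathway was read through 9 lists with 127 genes, of which 117 had a probe set. On day 2 against day 0, 10 of 104 compared were at least 2-fold higher (9.62%, beside 11.0% of all genes) and 9 lower (8.65%, beside 10.1%), with a median log2 ratio of 0.08. On day 1, 5 were higher (4.81%, beside 6.00%) and 11 lower (10.6%, beside 6.58%), with a median of 0.04. The lowest ratio computed in these lists was -1.97 on day 1, that of the adaptor gene Frs3 (273, 69.9 and 209.8). On day 2 it was -1.83, that of Rapgef3. The Rapgef3 ratio was a bound of -1.83 on day 1 as well, because its signal lay under the floor on both days. Its day 1 ratio may thus be lower than that of Frs3. Calls on dim or disagreeing probe sets were less firm. On day 2 against day 0, those of Gab2, Rapgef3, Rasa3, Rasal1, Rgl1 and Rin1 ended with a 60th-percentile floor. Those of Gab2, Inpp5d, Rap1gds1, Rapgef3, Rasal2 and Rin1 ended when the mean over probe sets was taken. With a pseudocount of 50 in place of the floor, those of Inpp5d, Rap2c, Rasa3, Rasal1, Rasal2 and Rgl1 ended. That of Rap2c also ended with quantile normalization and that of Rgl1 with a 25th-percentile floor. Gab2 was not compared with suffixed probe sets left out. On day 1 against day 0, the lower calls of Frs3, Rapgef3, Rem2 and Rin1 ended with a 60th-percentile floor. Those of Pik3cd, Rasl11b and Rem2 ended with the pseudocount. Taking the mean over probe sets ended those of Inpp5d, Pik3cd, Rapgef3, Rem2 and Rin1. Nothing is therefore read from the share of lower genes on day 1.

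**Figure D3:**
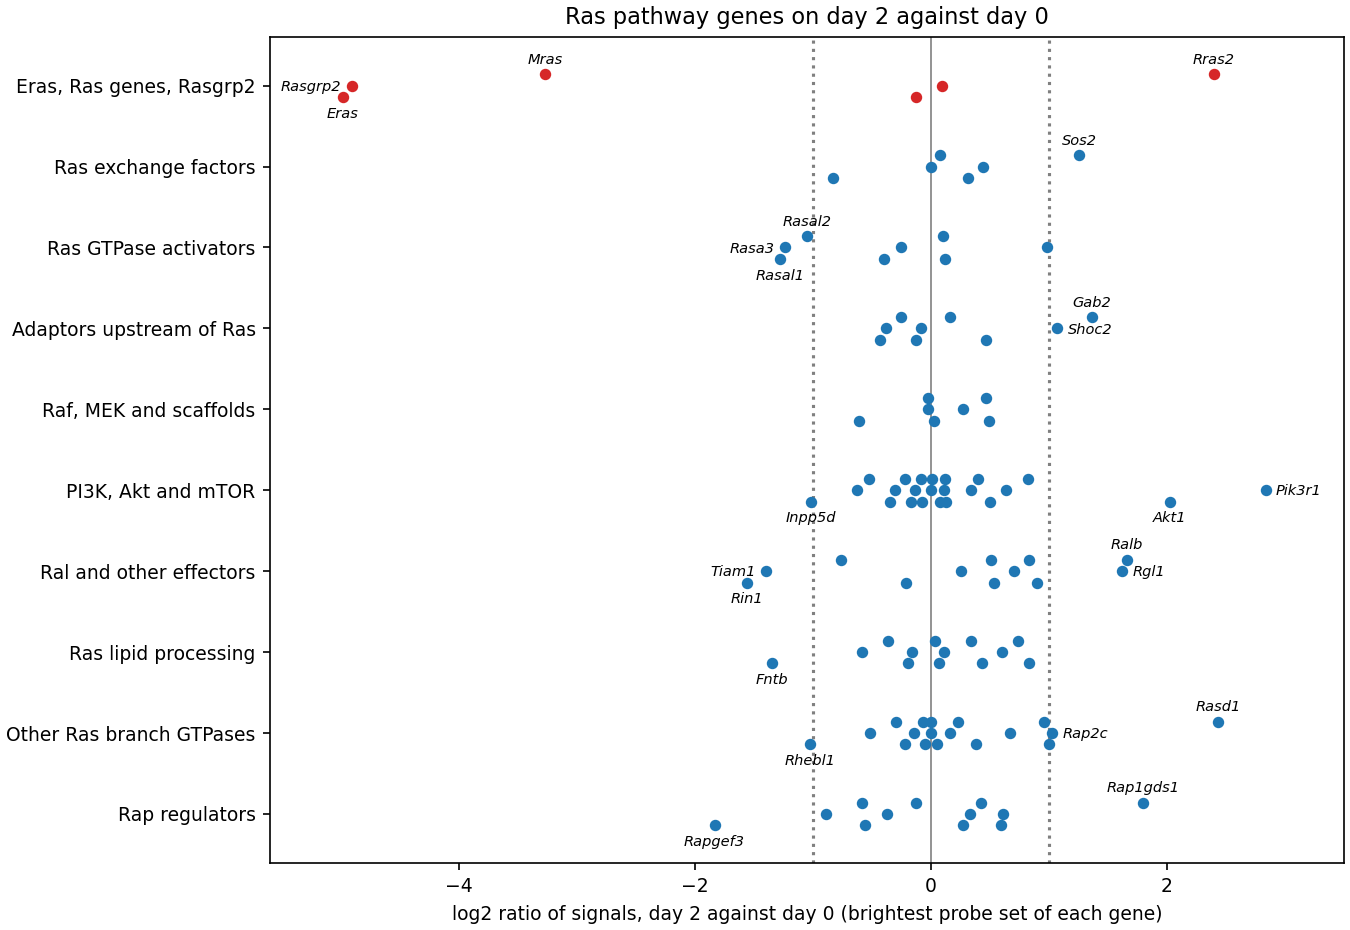
log2 ratio of day 2 against day 0 for each measured gene (a point each) in 9 Ras pathway lists and among the 6 members (red, top row). Dotted lines mark 2-fold, genes past it are named, and a ratio against the floor is drawn at its bound; Pik3r1, Rasd1 and Akt1 lie highest of the listed genes, and the genes of the row for Raf, MEK and scaffolds lie within 2-fold.

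Upstream of Ras, 1 of 5 exchange factor genes compared was higher on day 2 and 0 lower, and 2 of 9 adaptor genes were higher and 0 lower. Of all genes, 11.0% were higher and 10.1% lower. The lists here and below are small, so nothing is read from their counts. Sos2, an exchange factor that works beside Sos1, read 137, 284 and 326 on day 0, 1 and 2. Sos1 read 323, 385 and 182 on its brightest probe set, and its 5 probe sets had log2 ratios from -0.83 to 1.10, so its direction is unsettled. The relatives of Rasgrp2 were dim: Rasgrp1, Rasgrp3 and Rasgrp4 read at most 73.5 on every array on their brightest probe sets. Shoc2, the scaffold that joins Mras, was 2-fold higher on day 2 where Mras was lower, with 1396, 2374 and 2934 on 1 probe set and 565, 911 and 1261 on the other. The docking protein gene Gab2 read 8.40, 77.9 and 139 on 1 probe set, and its others stayed under 60. Ptpn11, the phosphatase SHP2 that carries receptor signals to Ras, had log2 ratios of day 2 against day 0 of 0.46 on its brightest probe set, -0.63 on another and at least 1.34 on a dim one.

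Ras GTPase activators, which turn Ras off, were lower in 3 of 8 cases on day 2 and higher in 0 (10.1% and 11.0% of all genes), with a median log2 ratio of -0.33 beside -0.05 over all genes. With the mean over probe sets 2 were lower and 1 higher. Those lower were Rasal1 (-1.28), Rasa3 (-1.24) and Rasal2 (-1.05). All were dim, with highest signals of 205, 256 and 442, and when 50 was added to each signal in place of the floor none of the 3 reached 2-fold. On day 1, 0 of 8 differed 2-fold.

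Downstream, the list of Raf, MEK and scaffold genes, which does not hold Shoc2, stayed within 2-fold in all 7 cases on both days, with medians of 0.09 and 0.02 on day 1 and day 2 against day 0. The widest on day 2 were the scaffold gene Ksr1 at -0.61, Lamtor3 at 0.49 and Braf at 0.46. The Braf probe sets ranged from -0.68 or lower, with day 2 under the floor, to 1.23. With suffixed probe sets left out, Ksr1 was at least 2-fold lower, with a bound of -1.27 on both days set by the floor. In the PI3K, Akt and mTOR list, 2 of 22 genes were higher and 1 lower on day 2 (11.0% and 10.1% of all genes). Pik3r1, the p85 regulatory subunit through which PI3K is recruited, read 180, 1975 and 1290.5 on its brightest probe set. Its 4 probe sets were all far brighter on both later days. For 3 of them the log2 ratios against day 0 ran from 3.45 to 3.96 on day 1 and from 2.84 to 3.67 on day 2. The dimmest was under the floor on day 0, and its ratios were at least 3.01 and at least 2.71. Akt1, the kinase that PI3K activates, read 522, 936 and 2121 on 1 probe set and 380, 736 and 1533 on another. Those had log2 ratios of 2.02 and 2.01 on day 2, while a dimmer one stood at 0.35 and the dimmest was under the floor on every array. The catalytic subunit genes were nearer to day 0 on day 2, with Pik3ca at 0.34, Pik3cb at 0.01 and Pik3cd at -0.62. On day 1 Pik3cb stood at -1.20 and Pik3cd at -1.01 on its brightest probe set. Other Pik3cd probe sets stood on day 1 at -0.30 and at -0.70 or lower, and the rest were under the floor. Inpp5d (SHIP1), a lipid phosphatase that opposes PI3K, read 964, 434 and 475, with a log2 ratio of -1.02 on day 2 and -0.56 on its other probe set.

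Other effector genes went both ways, with 2 of 12 higher and 2 lower on day 2 (11.0% and 10.1% of all genes). Ralb, a GTPase switched on downstream of Ras, read 879, 1441 and 2776, with ratios of 1.66 and 1.77 over its probe sets. The Ral exchange factor Rgl1 read 26.5, 50.5 and 166 on its brightest probe set, under the floor on day 0 and day 1, so its log2 ratio of day 2 against day 0 was at least 1.62, beside 0.53 on the other. The lower genes were Rin1 (159, 43.3 and 16.5) and the Rac exchange factor Tiam1 (658, 264 and 249.5). Of 13 genes for the lipid anchoring of Ras, only Fntb, the beta subunit of the farnesyltransferase, differed 2-fold on either day: it read 1552, 590.2 and 609, with log2 ratios of -1.39 and -1.35. The next widest, the palmitoyltransferase Zdhhc9 and the methyltransferase Icmt, stood at 0.83 and 0.74 on day 2, and the Zdhhc9 probe sets went from -0.64 to 0.83.

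Rasgrp2 acts on Rap, and both Rap1 genes stayed within 2-fold. Rap1a read 3012, 3296 and 3529.9, and Rap1b read 6884, 7272 and 8998. Of 16 other GTPases of the Ras branch compared, 2 were higher and 1 lower on day 2 (11.0% and 10.1% of all genes). Rasd1, known as a gene induced by dexamethasone, read 74.1, 138 and 401 on its 1 probe set (log2 ratio 2.43 on day 2), Rap2c had 3 probe sets with ratios from 1.01 to 1.39, and Rhebl1, a relative of the mTOR activator Rheb, 2 with -1.73 and -1.02. Rap2b stood on day 2 at 0.998 on its brightest probe set, just short of 2-fold. Its others stood at 1.96, 1.39 and, for a dim one, at least 0.55. Rap2a stood at 0.96 and 0.60. Among 12 Rap regulators, Rap1gds1, a chaperone-like exchange factor, read 434, 1099 and 1506 while its other probe set was under the floor. The exchange factor Rapgef3 (Epac1), which is switched on by cyclic AMP, read 193, 37.9 and 11.8 and was at least 3.56-fold lower on day 2. Rapgef5 stood at -0.89. Rap1gap, which turns Rap off, read 544, 214 and 657 and so was low on day 1 alone.

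Genes with the nearest 3-day pattern were sought among 12072 genes above the floor on at least 1 array whose probe sets had the same sign. Nearness was the Euclidean distance between the log2 ratios of day 1 and of day 2 against day 0, over 3 arrays; both ratios share the day 0 array. Nearest to Eras were Tcea3 (distance 0.51), a transcription elongation factor, the Hedgehog effector Gli2 (0.53), the activin subunit Inhbb (0.57), Cpsf4l (0.78) and the germ cell gene Morc1 (0.78). These distances differ from each other by less than the measurement SD of 0.38 on each Eras ratio, so they give no order. The day 2 signal of Cpsf4l was under the floor, so its distance is that of a bound. On day 1 and day 2 the other probe set of Inhbb stood at -1.98 and at -2.41 or lower. That of Gli2 stood at -2.65 and at -4.31 or lower, and that of Cpsf4l at -0.66 or lower on both days. For Rasgrp2 the search gave Calml4, Tcea3, Gli2, the ERK phosphatase Dusp6 and Bmp4, at computed distances of 0.52 to 0.69. The day 2 signals of Rasgrp2 and Calml4 were both under the floor, so these distances use bounds and give the genes no order. For Mras and Rras2 the search was added after their values had been seen. By the brightest probe sets, the pluripotency factors Esrrb and Sox2, the FGF-responsive factor Etv5, Steap1 and Aire lay within 0.14 of Mras, and Rffl, the galectin Lgals9, the Ras relative Rasd1, Ak3 and Vopp1 within the same distance of Rras2. These distances are under the measurement SD and give no order, and those of Aire and Vopp1 use bounds. Other probe sets differed more: the second of Mras stood at -1.75 and -2.04, and the others of Esrrb at -2.19 and -3.46 and at -1.97 and -2.18.

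**Figure D4:**
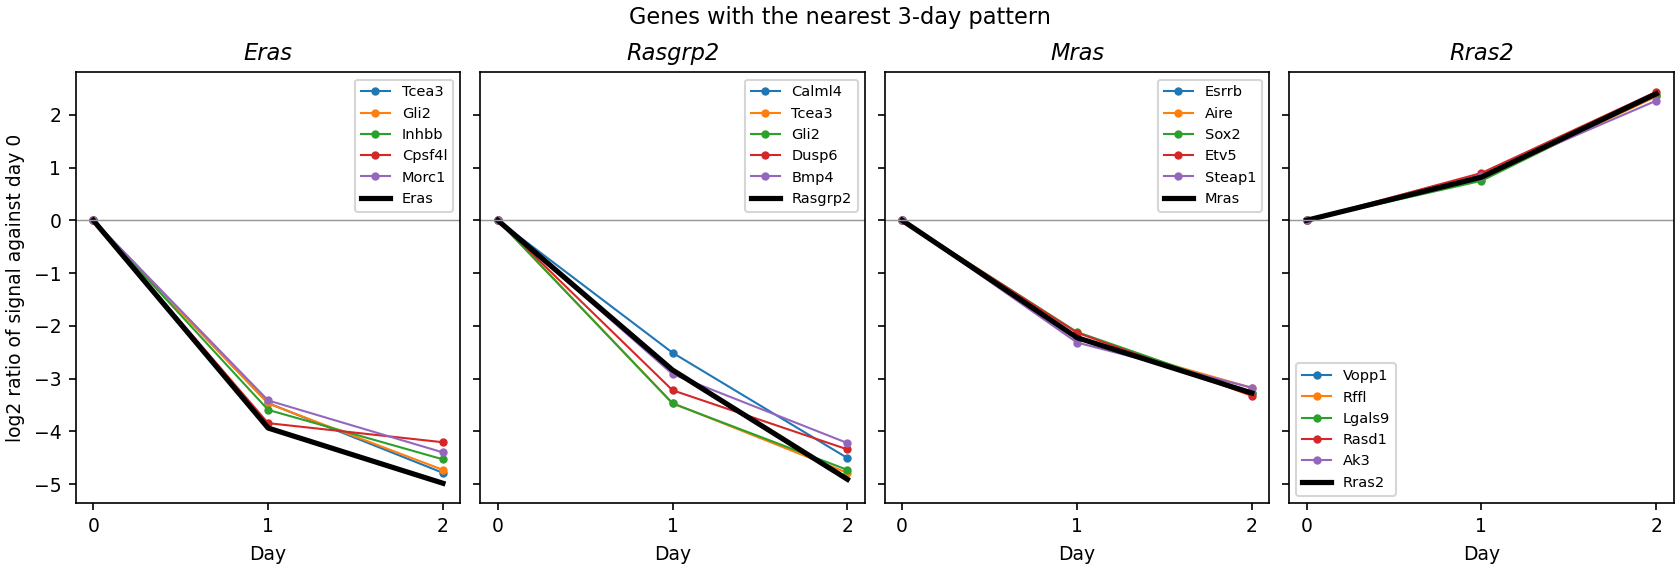
log2 ratio of signal against day 0 on day 0, 1 and 2 for Eras, Rasgrp2, Mras and Rras2 (black) and the 5 genes nearest to each (colours). Each gene is drawn by its brightest probe set, with a signal under the floor drawn at its bound; the companions of Eras lie at distances of up to 0.78 from it and those of Mras and Rras2 within 0.14.

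Genes next to the members on the chromosome were read from the same RefSeq table, as the nearest 2 protein-coding genes on each side. Both direct neighbours of Eras were at least 2-fold lower on day 2 than on day 0, as 10.1% of all genes were. Nothing is read from 2 genes. Pcsk1n, an inhibitor of a prohormone convertase, read 711, 247 and 121 on day 0, 1 and 2, and the deacetylase gene Hdac6 read 4317, 2336 and 1348. Their log2 ratios of day 2 against day 0 were -2.55 and -1.68. The next genes out were within 2-fold of day 0 on both days: Timm17b stood at -0.16 and -0.25 on day 1 and day 2, and Gata1, a blood factor, at 0.98 and -0.69. Beside Rras2, Copb1, a subunit of the vesicle coat COPI, was higher with 1849.98, 2914 and 3980.2, while Spon1, on the other side, read at most 98.4. Beside Rasgrp2, Pygm and Nrxn2 read at most 64.9 on any array, so they could show little. Beside Mras, Esyt3 stood at 0.75 on day 2. Near Nras, Dennd2c, the second gene on one side, read 613, 2313 and 2228, in contrast to the level signal of Nras. Near Rras, which was level too, Scaf1 stood at -0.91, Prr12 at -0.67 and Prrg2 at 1.06 on day 2. The Prrg2 call ended with a 60th-percentile floor. By brightest probe sets Armc8, Sike1, Irf3, Far1, Psma1, Sf1 and Slc22a12 lay within 2-fold of day 0 on day 2, and Ampd1 was under the floor on every array.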

How the data were processed

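Mouse ES cells were profiled on 1 Affymetrix array for each of day 0, day 1 and day 2 of Gata6 overexpression. The authors deposited linear intensity values for each probe set and, per the submitters' processing notes, used MAS5 (version not given in the sources used here). Their 2% trimmed means were 497.5, 497.6 and 497.7, so the arrays had been brought to a common scale; the number of arrays limits the precision. Of 45037 probe sets that are not controls, 34945 had 1 gene, 932 had several and 9160 had none, and only the first kind was used. Symbols were updated by gene identifier through RefSeq (GRCm38.p6, 34741 matched).

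Arrays were scaled to an equal 2% trimmed mean, values under the 40th percentile (54.0) were raised to that floor, and log2 was taken, with Python 3.11.15, pandas 2.3.3 and numpy 2.4.6. A gene was read by its brightest probe set, and higher or lower means at least 2-fold with the brighter array above the floor. A fold against the floor is written as "at least". The measurement SD came from 44292 differences in log2 ratio between paired probe sets of 1 gene, above the floor on every array. Each pair was counted in all 3 comparisons, so these differences are not independent. The SD was 0.49, 0.38, 0.25 and 0.16 for geometric mean signals up to 200, 1000 and 5000 and beyond that. The counting was tried on simulated data, with changes well beyond 2-fold planted in genes brighter than 200 on day 0. The simulated noise was below the SD of all but the brightest signals, so calls near 2-fold or near the floor were not tested. Genes named are all member probe sets, the 3 widest of each list on day 2, the 5 nearest in pattern to Eras and to Rasgrp2, and marker genes; further names were chosen after their values were seen. The members and lists were chosen with earlier results of these data known. Without replicates, days were not tested against each other. The floor, scaling, probe set rule and fold threshold were varied.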

Additional observations from a re-analysis of the deposited data

How the results depend on the processing

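Each result was recomputed with a 25th- or a 60th-percentile floor, with a pseudocount of 50 instead of any floor, with quantile normalization, with the values as deposited, with the mean over probe sets, with suffixed probe sets left out and with a 3-fold threshold. No member ratio that passed 2-fold changed sign in any of them. Eras stayed between -3.94 and -3.63 on day 1 and between -5.01 and -4.37 on day 2 against day 0, but had no value with suffixed probe sets left out. Mras on day 2 against day 0 lay between -3.31 and -2.04, Rasgrp2 between -5.96 and -3.46 and Rras2 between 2.11 and 2.44. The step of day 2 against day 1 was less settled. The count of lower members there was 3, and 1 with a 60th-percentile floor, with the pseudocount, with means over probe sets, with suffixed probe sets left out and at 3-fold; the higher member was lost at 3-fold, leaving 0. Over all genes, higher and lower counts for day 1 against day 0 were 1256 and 1618 with a 25th-percentile floor, 539 and 517 with a 60th-percentile floor, and 346 and 288 at 3-fold. For day 2 against day 0 they were 720 and 540 at 3-fold, and for day 2 against day 1 they were 1336 and 912, 440 and 272, and 228 and 112 under the same 3 settings. A higher floor leaves fewer dim genes to compare; other causes were not tested. No paired analysis was possible because each day has 1 array. Signals near the floor, those of Rasgrp2 on day 2 above all, set no more than a bound.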
